A study of Mus musculus with 6 samples.

Results

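The oxidative phosphorylation subunits are the proteins of the mitochondrial inner membrane that pass electrons to oxygen and make ATP. Members were the non-control probes whose gene name in the array files began with Nduf (complex I), Sdha to Sdhd (complex II), Uqcr (complex III), Cox4 to Cox8 (complex IV) or Atp5 (complex V). There were 138 such probes among the 55681 non-control probes of the array, and they carried 95 gene names, 45 of complex I, 6 of complex II, 8 of complex III, 18 of complex IV and 18 of complex V. The prefixes also took in assembly factors (Ndufaf and Sdhaf genes), tissue isoforms and the pseudogene Atp5c1-ps. They also took in Atp5s and Atp5sl, whose present symbols are Dmac2l and Dmac2 and which were counted neither as subunits nor as assembly factors.

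The arrays compared CD71highTer119+ erythroblasts, red cell precursors that still carry much transferrin receptor, sorted from the bone marrow (BM) of 3 P38α+/− and 3 P38α−/− mice, with 1 Agilent whole mouse genome array a mouse. P38α+/− mice were Mx1-Cre/P38α fl/+ and P38α−/− mice were Mx1-Cre/P38α fl/fl, all C57Bl/6, male or female, and 6 to 8 weeks old when Cre was induced with 3 injections of 300 µg PolyIC. After 6 weeks of rest every mouse was made anaemic with 1 injection of phenylhydrazine (PHZ, 100 mg per kg), which destroys circulating red cells, and cells were sorted on day 4. The control mice therefore carried Cre, 1 deleted allele, PolyIC and PHZ as well, and Mx1-Cre is switched on by interferon in all blood lineages and in other tissues, not in erythroid cells alone.

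As background, complex I oxidises NADH and complex II oxidises succinate, and both hand electrons to ubiquinone. Complex III passes them to cytochrome c, complex IV passes them on to oxygen, and complex V (ATP synthase) uses the proton gradient that complexes I, III and IV build. Erythroblasts need their mitochondria for heme as well as for ATP, since heme synthesis begins and ends there, and they discard these organelles when they mature to red cells.

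Values are scaled log2 signals: the log2 of the background-subtracted signal, less a 75th percentile computed within each array from probes that cleared background on every one of the 6 arrays, and a log2 fold change is P38α−/− minus P38α+/−. Testing was limited to probes that the scanner software marked well above background on every array of a genotype, whichever it was, and a gene was represented by its brightest tested probe. Of the 95 gene names, 91 were tested, and 87 were represented by a probe well above background on every array. Cox7b2, Cox8b, Cox8c and Ndufa4l2 were not tested. A probe was called at a Benjamini-Hochberg adjusted p of at most 0.05 in limma over all 18764 tested probes with a fold of at least 2, and 27 genes were called by at least 1 probe, 21 of them higher in P38α−/− arrays (63 with the replicate number as a block, 15 of them higher, and 0 with the slide as a block).

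Between 28.9% and 53.0% of the probes of an array were well above background, with both the highest and the next highest share on P38α+/− arrays, and P38α−/− replicate 3 lay alone on its slide and scan. Mapk14, which encodes P38α, read 0.32, 0.58 and 0.60 on the P38α+/− arrays and 0.75, 1.19 and 1.20 on the P38α−/− arrays at its brighter probe (log2 fold change 0.54, SE 0.19, limma adjusted p = 0.187), and its other tested probe differed by 0.01. The exons that Cre removed are not given in the sources used here, so neither probe checked the genotypes, which are those of the labels. For P38α−/− mice given PolyIC, the paper reports an excised locus and no P38α protein in sorted erythroblasts. Summed linear signals of 9 neutrophil markers ran from 108 to 282 on P38α+/− arrays and from 58.4 to 82.3 on P38α−/− arrays, and the 9 log2 fold changes lay between -2.06 and -1.05. The summed signal of the 7 B cell markers overlapped, at 0.136 to 1.21 and 0.055 to 0.185, and Cd79b was the only one well above background on all 6 arrays. The 3 tested B cell markers differed by -3.88 (Ebf1), -3.25 (Ms4a1) and -2.42 (Cd79b). Ebf1 and Ms4a1 did not overlap, and they were well above background on all P38α+/− arrays and on no P38α−/− array. The summed signal of the 6 T or NK cell markers ran from 0.588 to 2.50 and from 0.402 to 0.529, without overlap. Only 2 of them were tested: Nkg7 differed by -1.67 without overlap and Cd3e by -0.32 with overlap. The 4 tested monocyte or macrophage markers had a median of -1.29 with overlapping sums (0.618 to 1.45 and 0.392 to 0.691). Of the 6 tested early erythroid markers, Kit, well above background on 2 P38α−/− arrays, differed by -1.62 and Epor by 0.21. Both were without overlap, and the other 4 overlapped. Gata2 was not tested, and the summed signal of the early markers overlapped (31.9 to 41.1 and 35.2 to 39.7). The summed signal of 8 late erythroid markers overlapped, at 543 to 892 and 546 to 921. Neutrophil signal thus moved with genotype beside every result that follows. The tested B cell, T or NK cell and monocyte or macrophage markers were lower in P38α−/− arrays as well. Megakaryocyte or platelet markers were mixed: of 4 tested, Pf4 differed by -1.42 without overlap. Itga2b (0.22), Gp9 (0.33) and Gp1ba (1.01) were higher with overlap. The part of these cells in those results was not tested. In bulk RNA of sorted cells, fewer cells of a type and less RNA per cell cannot be told apart.

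No member of any complex was called in the main comparison, beside 0.17% of the 14139 tested genes by their brightest probe and 0.149% of the tested probes. The smallest adjusted p of a member was 0.106, for Cox6b2. At an unadjusted p of at most 0.05 there were 14 members higher and 2 lower in P38α−/− arrays, where 4.92% of all tested genes were higher and 15.1% lower (4.55% and 16.4% of probes). All 3 P38α−/− arrays lay above all 3 P38α+/− arrays for 33 of the 91 tested members and below them for 3, and the genotypes overlapped for 55. Over all tested genes these shares were 7.45% and 19.6%, and over all tested probes 6.93% and 20.7%. The count of 33 depended on the scaling: it was 35 under quantile normalization, 37 in the normalized values that the authors deposited, 59 with the percentile taken over all probes and 0 when arrays were centred on their spike-in probes.

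**Figure D1:**
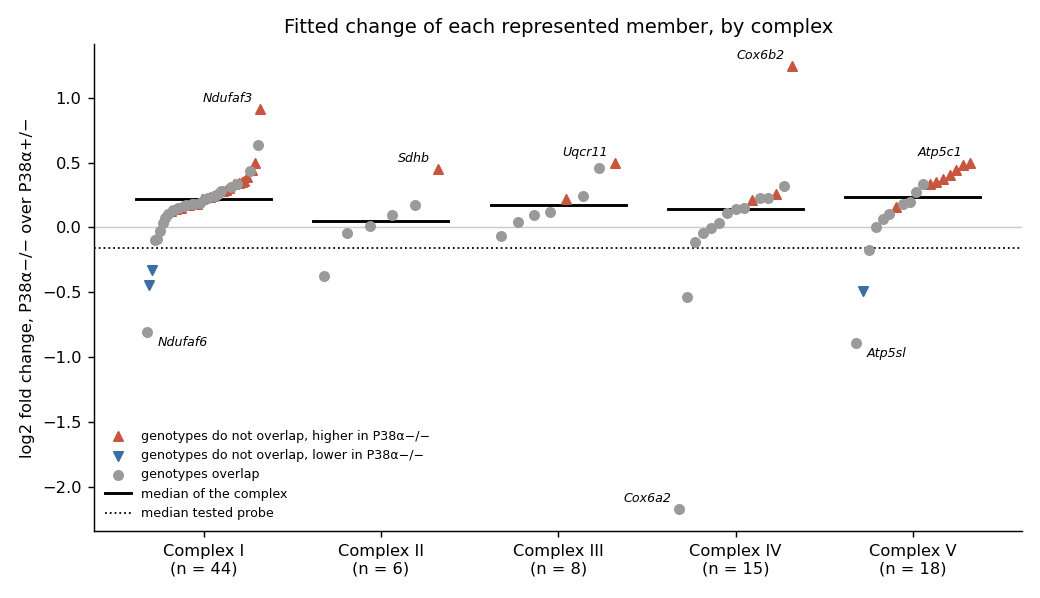
Log2 fold change (P38α−/− over P38α+/−, vertical axis) of each tested member by its brightest tested probe, sorted within its complex. Upward and downward triangles are members whose genotypes do not overlap, grey circles those that overlap, bars the medians of the complexes (0.22, 0.05, 0.17, 0.14 and 0.23 for complexes I to V) and the dotted line the median tested probe at -0.16, which lies below all 5 bars.

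Probes could be tested through the P38α+/− arrays alone. The median tested probe differed by -0.09 between genotypes when only probes well above background on all 6 arrays were kept. In the main comparison it differed by -0.16, so each complex was also set against that value. The median member read 0.34 above it, and 82 of the 91 members lay above it, as did 52.2% of all tested genes. By complex the medians relative to it were 0.38 for complex I (44 genes), 0.21 for complex II (6 genes), 0.33 for complex III (8 genes), 0.30 for complex IV (15 genes) and 0.39 for complex V (18 genes). All 5 stayed above 0 under every alternative run. The percentile over all probes and spike-in centring only shift whole arrays, and the replicate block leaves each difference as it was. None of them could move these medians. Among the other alternatives the lowest values came from quantile normalization (0.16, 0.06, 0.09, 0.12 and 0.17 in the same order) and from the authors' normalized values (0.20, 0.06, 0.08, 0.15 and 0.20). With the slide as a block, which leaves P38α−/− replicate 3 out of the difference, they were 0.39, 0.24, 0.36, 0.30 and 0.41. Members are not replicates of a genotype, so these medians were not tested.

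Most members were bright, and the change moved with brightness over the whole array. The median log2 fold change was -0.66, -0.26, -0.12, -0.03 and 0.00 in 5 equal groups of tested genes from the dimmest to the brightest. The brightest group held 67 of the 91 members, whose median was 0.21, and 61 of them lay above the median of that group. There the genotypes did not overlap, with P38α−/− higher, for 28 members, beside 12.1% of all its genes. The next group held 10 members with a median of 0.26, and the dimmest held 5 with a median of -0.81.

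**Figure D2:**
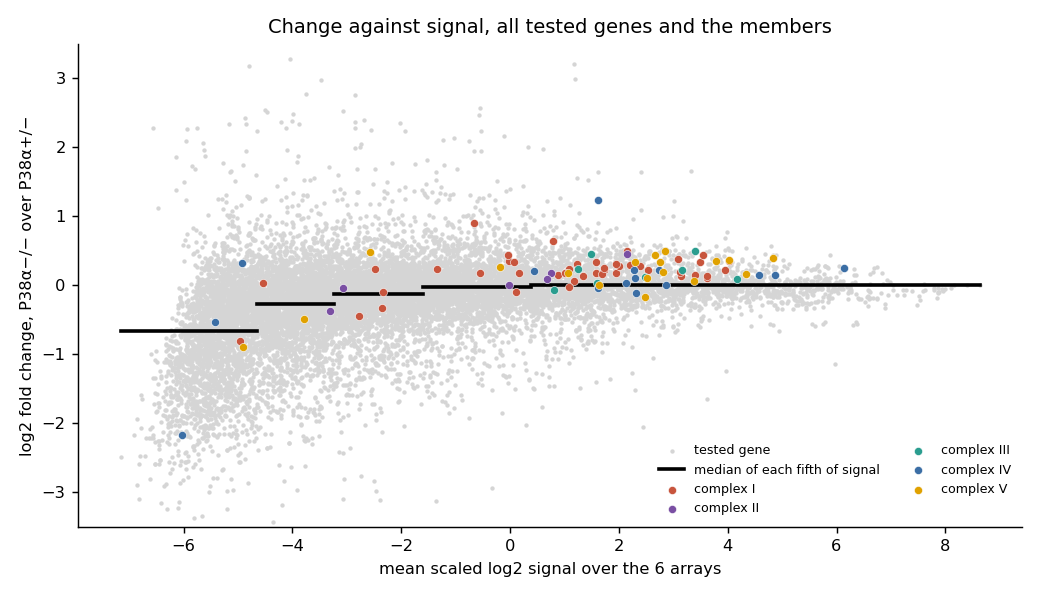
Log2 fold change (vertical axis) against the mean scaled log2 signal over the 6 arrays (horizontal axis) for the tested genes in grey and the members in colour by complex. Black bars are the medians of 5 equal groups by signal, from -0.66 to 0.00, and most coloured points lie in the brightest group and above its bar.

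Array by array, the represented members averaged 3.35, 3.39 and 3.57 log2 units above the array's median tested gene on P38α+/− arrays and 3.71, 3.81 and 3.75 on P38α−/− arrays. The P38α−/− arrays were thus all higher, and P38α+/− replicate 3 lay nearest to them. The means were 3.44 ± 0.12 and 3.75 ± 0.05 (SD, n = 3 each). In complexes I, III, IV and V every P38α−/− array was likewise higher. In complex II P38α+/− replicate 3, at 1.95, lay above P38α−/− replicate 1, at 1.94.

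**Figure D3:**
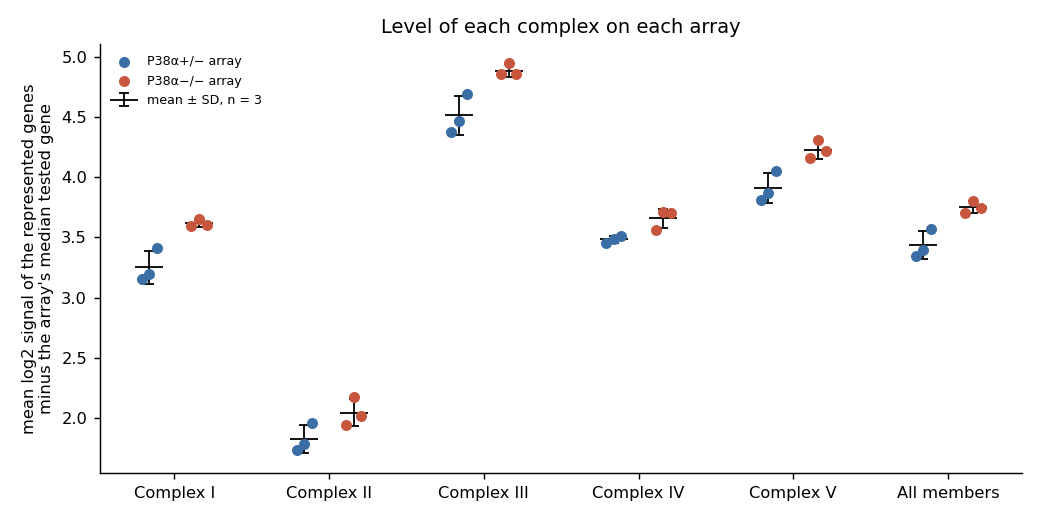
Mean log2 signal of the tested genes of each complex minus the array's median tested gene, 1 point an array, with the mean and SD of 3 arrays a genotype. P38α−/− points lie above P38α+/− points in every column but complex II, and heights are not compared between complexes because probes differ in brightness.

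Of the 73 structural subunits tested in the 5 complexes, 72 lay above the median tested probe, with a median log2 fold change of 0.22. The genotypes did not overlap for 28, all with P38α−/− higher, where 7.45% of all tested genes were higher and 19.6% lower. The 9 assembly factors under the prefixes had a median of -0.09, with 5 above the median tested probe, 2 without overlap in each direction and values from -0.81 (Ndufaf6, well above background on 2 P38α−/− arrays) to 0.91 (Ndufaf3). The assembly factors were also dimmer, at 0.45 and 0.38 log2 units below the array's median tested gene in the 2 genotypes against 4.34 and 4.74 above it for the subunits, and the 2 sets were not tested against each other.

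In complex I, the largest complex of the chain, all 7 core subunits tested lay above 0, between 0.14 and 0.50. Ndufs3, a core subunit of the arm that reaches into the matrix, read 1.85, 1.73 and 2.11 on P38α+/− arrays and 2.41, 2.36 and 2.41 on P38α−/− arrays. The P38α−/− values were nearly equal and all higher. Its log2 fold change was 0.50 (SE 0.16, limma adjusted p = 0.167). Of the 29 accessory subunits, which surround the core, 27 lay above 0, with a median of 0.22. The genotypes did not overlap for 13, all higher, beside 7.45% of all tested genes.

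Ndufs6, a zinc-binding accessory subunit, read 3.36, 3.37 and 3.25 against 3.88, 3.72 and 3.70 on P38α−/− arrays, with no overlap (log2 fold change 0.44, SE 0.14, limma adjusted p = 0.167). Ndufb8, an accessory subunit of the membrane arm, read 3.01, 2.77 and 2.89 against 3.36, 3.19 and 3.28, again with no overlap (0.39, SE 0.15, limma adjusted p = 0.213). At the other end, Ndufs4, an accessory subunit of the matrix arm, read 0.17, 0.27 and 0.04 against -0.04, 0.15 and 0.07, and its genotypes overlapped. Its log2 fold change of -0.10 was the complex I value nearest to the median tested probe, and the sign turned with the percentile over all probes (0.38) and with spike-in centring (0.10).

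Within complex I, the 7 assembly factors spread over a wider range than the core and accessory subunits. Ndufaf3, which with Ndufaf4 acts in building the matrix arm, read -0.89, -1.31 and -1.15 on P38α+/− arrays and 0.01, 0.01 and -0.64 on P38α−/− arrays. P38α−/− replicate 3 lay nearest to the controls, and the genotypes did not overlap (log2 fold change 0.91, SE 0.24, limma adjusted p = 0.133). Ndufaf4 itself read -2.47, -2.69 and -2.51 against -2.87, -3.07 and -3.06, lower with no overlap (-0.44, SE 0.15, limma adjusted p = 0.184), and its second tested probe differed by -0.10 with overlap. Ndufaf1, which helps to build the membrane arm, read -2.29, -2.16 and -2.09 against -2.65, -2.41 and -2.47, also lower with no overlap (-0.33, SE 0.15, limma adjusted p = 0.276). With the percentile over all probes the values of Ndufaf4 and Ndufaf1 were 0.04 and 0.16, so that the direction of both turned.

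The probe sequences, from the array files, are those of Ndufaf3, Ndufb8 and Cox6b2, the members with the highest fitted change among assembly factors and complex IV genes and a probe that spans an intron in complex I, and of a second Sdhb probe. Positions are mm9. The Ndufaf3 probe spans chr9:108468692-108468899, that of Ndufb8 chr19:44624855-44627199, that of Cox6b2 chr7:4703488-4703547 and that of Sdhb chr4:140529606-140529665. The first 3 target the minus strand and the last the plus strand, and at least 1 forward reading frame of each printed stretch runs without a stop, except that the Cox6b2 stretch is the first 24 of 60 bases and ends at the first stop codon of its first frame, in capitals.
Ndufaf3: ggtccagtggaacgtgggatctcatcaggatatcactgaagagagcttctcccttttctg
Ndufb8: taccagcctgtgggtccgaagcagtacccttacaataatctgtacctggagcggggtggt
Cox6b2: ggaactttcccgggcaaaataTGA
Sdhb: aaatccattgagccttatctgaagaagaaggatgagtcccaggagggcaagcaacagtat

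In complex II, succinate dehydrogenase, Sdhb, the iron-sulfur subunit, had the highest log2 fold change, and a contrast with its partners was not tested. It read 1.86, 1.86 and 2.04 on P38α+/− arrays and 2.34, 2.43 and 2.34 on P38α−/− arrays (log2 fold change 0.45, SE 0.14, limma adjusted p = 0.163). Its second probe, printed above, read 0.08, -0.39 and -0.10 against 0.61, 0.27 and 0.45 (0.58, SE 0.19, limma adjusted p = 0.168), so that the genotypes did not overlap at either probe.

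Sdha, the flavoprotein that binds succinate, read 0.54, 0.56 and 0.87 against 0.58, 1.02 and 0.89, with overlap and a log2 fold change of 0.17. Sdhc, a membrane anchor, read -0.08, 0.02 and -0.03 against -0.10, 0.09 and -0.06, with overlap and a difference of 0.01. Sdhd, the other anchor, differed by 0.10 with overlap, at 0.67, 0.66 and 0.59 against 0.68, 0.93 and 0.59. Among the 6 genes of the complex only Sdhb had no overlap. Sdhaf1, which helps iron-sulfur clusters into Sdhb, read -2.64, -3.12 and -3.61 against -3.17, -3.58 and -3.74 (log2 fold change -0.38). Sdhaf2, which helps flavin onto Sdha, read -3.15, -3.08 and -2.93 against -3.45, -2.82 and -3.02 (-0.04). Both assembly factors overlapped, and the sign of each turned with the percentile over all probes, to 0.10 and 0.44.

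In complex III, which hands electrons to cytochrome c, 8 of 8 genes lay above the median tested probe. The genotypes did not overlap for 2, both higher, beside 7.45% of all tested genes. Uqcr11, a small accessory subunit, read 3.22, 3.15 and 3.11 on P38α+/− arrays and 3.91, 3.53 and 3.52 on P38α−/− arrays, where replicate 1 was the highest (log2 fold change 0.50, SE 0.17, limma adjusted p = 0.179). A second probe named for Uqcr11 differed by 0.48 without overlap, but the files place it on chromosome 1 while RefSeq has the gene on chromosome 10. Uqcrq, a subunit near the ubiquinone site, read 2.99, 3.07 and 3.06 against 3.36, 3.23 and 3.20 (0.22, SE 0.14, limma adjusted p = 0.402), with no overlap and P38α−/− higher. Uqcrfs1, the Rieske iron-sulfur protein, read 0.62, 0.89 and 1.02 against 0.42, 1.13 and 0.79, with overlap. Its value of -0.06 was the one nearest to the median tested probe, and it was 0.42 with the percentile over all probes and 0.14 with spike-in centring.

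Complex IV, cytochrome c oxidase, held the member with the highest log2 fold change. Cox6b2, known as the testis form of subunit VIb, read 1.23, 0.62 and 1.10 on P38α+/− arrays and 2.51, 1.75 and 2.43 on P38α−/− arrays. All 3 P38α−/− arrays were higher, and replicate 2 was the lowest of each genotype. The difference of 1.24 (SE 0.27), 2.37-fold, had a limma adjusted p of 0.106. Across the alternatives it ran from 1.06 to 1.73, and its adjusted p from 0.00407 to 1, passing 0.05 with the percentile over all probes and with array weights (0.0163). Array weights gave 3.99 to P38α−/− replicate 3, alone on its slide, and 0.474 and 0.765 to the other P38α−/− arrays. Cox6b1, the ubiquitous partner of Cox6b2, read 0.48, 0.17 and 0.36 against 0.60, 0.54 and 0.50, with no overlap and a difference of 0.21 (SE 0.15, limma adjusted p = 0.462).

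Cox6a1, the ubiquitous form of subunit VIa, read 6.02, 5.99 and 6.03 against 6.30, 6.20 and 6.31, with little spread and no overlap (log2 fold change 0.26, SE 0.13, limma adjusted p = 0.329). Cox6a2, the heart and muscle form, was dim and read -4.81, -4.04 and -5.97 against -7.43, -5.48 and -8.44. It was well above background on 3 P38α+/− arrays and 1 P38α−/− array, and P38α−/− replicate 2 lay among the controls. It was tested through the P38α+/− arrays, so its log2 fold change of -2.17 (SE 0.83, limma adjusted p = 0.212) is set against signals at background. The value ran from -3.37 with array weights to -0.48 with normexp background correction, and the adjusted p from 0.033 to 1, passing 0.05 with array weights and with the percentile over all probes (0.0497).

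In the other isoform families of complex IV the genotypes overlapped, except for Ndufa4. Cox4i1, the common form of subunit IV, read 4.67, 4.32 and 4.53 against 4.94, 4.36 and 4.66 (log2 fold change 0.15). Cox4i2, its form induced by low oxygen in lung, read -4.67, -5.09 and -5.68 against -5.58, -6.40 and -5.06 and was well above background on 1 P38α−/− array. Its value of -0.53 turned to 0.28 under quantile normalization and 0.57 in the authors' normalized values. Cox7a2 differed by 0.11 and Cox8a, the common form of subunit VIII, by 0.14. Cox7a1, the heart and muscle form, differed by 0.32 and was well above background on 2 P38α−/− arrays, and without P38α−/− replicate 3 the value was -0.09. Cox7a2l, which takes part in joining complexes III and IV, differed by -0.11, the complex IV value nearest to the median tested probe, and turned to 0.37 with the percentile over all probes and 0.09 with spike-in centring. Cox8b, another muscle form, was well above background on no array. Ndufa4, named for complex I and now counted with complex IV, read 1.42, 1.50 and 1.56 against 1.75, 1.69 and 1.56, where the genotypes touched to rounding (0.17), and its relative Ndufa4l2 was well above background on 1 P38α+/− array only.

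**Figure D4:**
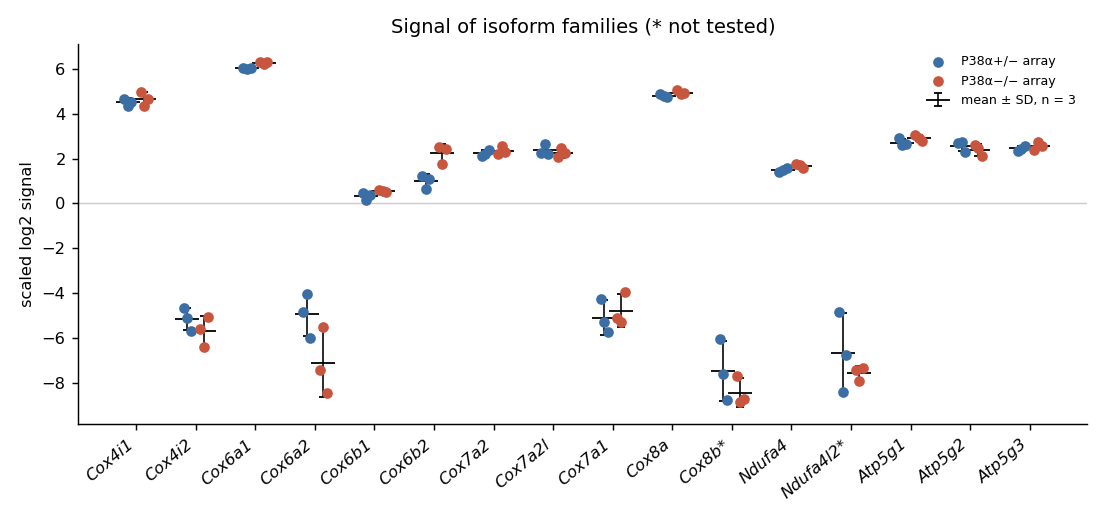
Scaled log2 signal (vertical axis) of isoform families on each array, with the mean and SD of 3 arrays a genotype; an asterisk marks a gene that was not tested. Cox6b2 is the member of these families with the widest gap between genotypes without overlap (1.24), and Cox4i2, Cox6a2, Cox7a1, Cox8b and Ndufa4l2 all lie below -3. Heights are not compared between genes, since each comes from another probe.

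Complex V, ATP synthase, is made of the catalytic F1 head and the membrane FO part with its stalk. All 5 F1 genes lay above 0, between 0.34 and 0.50, and 4 did not overlap, all higher, beside 7.45% of all tested genes. Atp5c1, the rotating gamma subunit, read 2.56, 2.40 and 2.81 on P38α+/− arrays and 2.84, 3.27 and 3.16 on P38α−/− arrays, a narrow gap between replicate 3 of the controls and P38α−/− replicate 1 (log2 fold change 0.50, SE 0.19, limma adjusted p = 0.216). A second, dim Atp5c1 probe differed by 0.04 with overlap. Atp5b, the catalytic beta subunit, read 4.66, 4.43 and 4.78 against 5.05, 4.96 and 5.07, with no overlap (0.40, SE 0.16, limma adjusted p = 0.217). The pseudogene probe Atp5c1-ps read -2.79, -3.14 and -2.51 against -2.51, -2.22 and -2.27 (0.48), and signal from the near-identical parent RNA cannot be told apart on it.

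Of the 10 FO and stalk genes 9 lay above 0, with a median of 0.17, and 3 did not overlap, all higher (7.45% of all tested genes). Atp5k, subunit e, which helps ATP synthase to pair up, read 2.38, 2.50 and 2.47 against 2.92, 2.91 and 2.85 (log2 fold change 0.44, SE 0.14, limma adjusted p = 0.156). Its other tested probes differed by 0.43 and 0.50, also without overlap, and the files place 2 of its probes on an unplaced part of chromosome 5. The 3 genes for the c subunit of the rotor, which encode the same mature protein, all overlapped: Atp5g1 differed by 0.19, Atp5g3 by 0.11 and Atp5g2 by -0.18, the complex V value nearest to the median tested probe. Atp5g2 turned to 0.31 with the percentile over all probes and 0.03 with spike-in centring. Atp5s, now named Dmac2l, read -3.50, -3.54 and -3.57 against -4.54, -3.76 and -3.78, lower with no overlap (-0.49, SE 0.24, limma adjusted p = 0.305). P38α−/− replicate 1 was the lowest by far, and in the authors' normalized values the difference was 0.02.

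**Figure D5:**
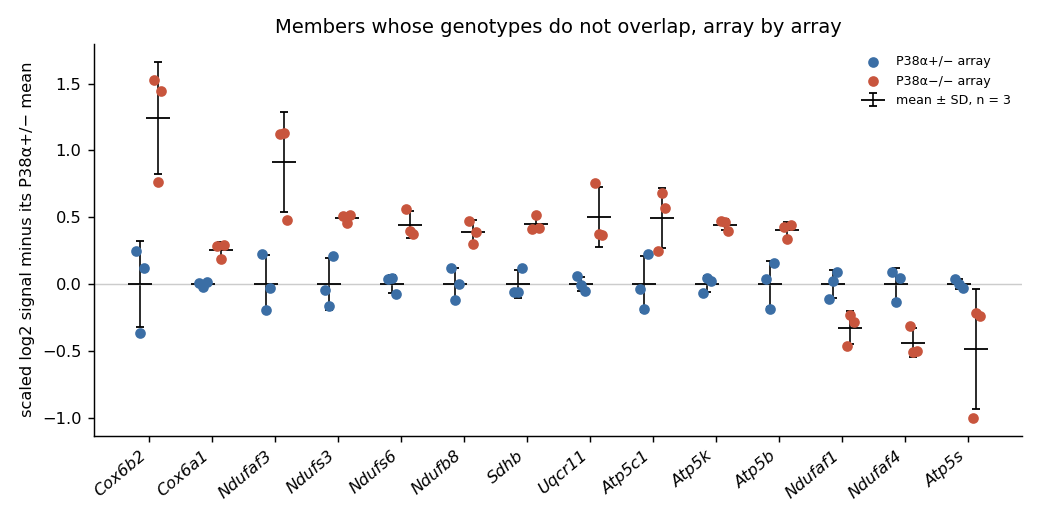
Scaled log2 signal of 14 members whose genotypes do not overlap, minus the gene's P38α+/− mean (vertical axis), for each array, with the mean and SD of 3 arrays a genotype. Cox6b2 (1.24) and Ndufaf3 (0.91) lie highest, most others lie between 0.26 and 0.50, and Ndufaf1, Ndufaf4 and Atp5s lie below 0. These members were chosen for the lack of overlap, and none was called.

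Several members had more than 1 probe. Of the 29 genes with more than 1 tested probe, the probes pointed the same way for 24. The 5 others were Atp5f1 (-0.01 and 0.01), Sdhc (-0.05 and 0.01), Uqcrb (from -0.01 to 0.05), Ndufb11 (-0.14 at a dim probe, 0.14 and 0.16 at bright ones) and Ndufv3 (-0.27 at a dim probe and 0.31 at the bright one, where the genotypes did not overlap). The files place 7 member probes of 6 genes (Ndufb11, Uqcr11, Uqcrh, Atp5j2, Atp5k and Atp5l) away from the RefSeq chromosome of the gene or on an unplaced part of it, so signal from near-identical copies is uncertain there.

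The subunits that mitochondrial DNA encodes complete complexes I, III, IV and V. All 13 were tested and none was called. The genotypes overlapped for all 13, where 7.45% of all tested genes were higher and 19.6% lower without overlap. Their median log2 fold change was 0.03, with 12 above the median tested probe. The range ran from -0.64 for mt-Nd6, read from the opposite strand to the others, to 0.28 for mt-Cytb, the cytochrome b of complex III. The 91 nuclear-named members, in comparison, had a median of 0.18. A difference between the sets was not tested. The representing probes of mt-Nd3, mt-Nd4l, mt-Co2, mt-Co3, mt-Atp6 and mt-Atp8 carry positions on chromosome 1, so signal from near-identical copies is uncertain there.

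Gene lists that feed or build the chain had no called gene. Among 16 genes of the tricarboxylic acid cycle and pyruvate entry the median was 0.08. Without overlap 6 were higher and 1 lower, beside 7.45% and 19.6% of all tested genes. Mdh2, mitochondrial malate dehydrogenase, read 3.83, 3.75 and 3.92 against 4.23, 4.38 and 4.36 (log2 fold change 0.49, limma adjusted p = 0.15), and Dlst, of the oxoglutarate dehydrogenase complex, differed by -0.14. Among 8 electron carriers and other entry points, Cyc1 of complex III included, the median was 0.10 and all overlapped. The 8 ATP synthase regulators and carriers had a median of 0.08, and only Slc25a4, an ADP/ATP carrier, had no overlap (0.34).

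Of 36 assembly factors outside the prefixes 32 were tested, with a median of 0.07. Without overlap 3 were higher and 3 lower, beside 7.45% and 19.6% of all tested genes. Coa5, a complex IV assembly factor, read -2.49, -2.57 and -2.14 against -1.65, -1.42 and -1.48 (log2 fold change 0.88, limma adjusted p = 0.0967), and Higd2a, which acts in joining complexes, differed by 0.48. The largest differences without overlap on the other side were those of Ttc19 (-0.56, well above background on 2 P38α−/− arrays), of complex III, and Cox11 (-0.38), which delivers copper to complex IV. Of 18 regulators of mitochondrial biogenesis 16 were tested, with a median of -0.11. Polg2, a subunit of the mitochondrial DNA polymerase, differed by 0.53 without overlap, and Twnk, the helicase, was well above background on all P38α+/− arrays and on no P38α−/− array. The coactivators Ppargc1a and Ppargc1b were well above background on no array.

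Promoters of oxidative phosphorylation genes are known for sites of NRF1, GABP and YY1. RefSeq sequences of 250 bases before to 50 after the start (GRCm38.p6) were held for 78 of the 95 gene names, with 84 starts. Searched on both strands, the NRF1 core GCGCATGC was in 14.3% of the 84 and in 2.71% of all 32851 promoters, the ETS and GABP core CCGGAAG in 22.6% and 8.86%, the YY1 core AAGATGGC in 14.3% and 2.75%, and the Sp1 box GGGCGG in 44% and 35.7%. The YY1 core was in 7 of the 41 complex I promoters and 5 of the 20 of complex V, and in none of the 5, 5 and 13 of complexes II, III and IV. A match is a description of letters and not a binding site. Printed 5′ to 3′ on the strand of the gene are the 150 bases before the start of some members described above. All were higher in P38α−/− arrays without overlap. NRF1 and ETS cores are in capitals, which overlapping NRF1 matches lengthen. The stretches lie at chr2:90904722-90904871, minus strand for Ndufs3, chr4:140961121-140961270, plus strand for Sdhb, chr10:80406822-80406971, minus strand for Uqcr11, chr5:115348959-115349108, minus strand for Cox6a1 and chr5:108434400-108434549, minus strand for Atp5k. Cox6b2 (chr7:4753095-4753244, minus strand) is shown as the member with the highest fitted change, and none of the NRF1, ETS and YY1 cores is in its 150 bases. Members that were lower without overlap hold cores too and are not printed: Ndufaf4 has an NRF1 core and Ndufaf1 an ETS core in the 150 bases.
Ndufs3: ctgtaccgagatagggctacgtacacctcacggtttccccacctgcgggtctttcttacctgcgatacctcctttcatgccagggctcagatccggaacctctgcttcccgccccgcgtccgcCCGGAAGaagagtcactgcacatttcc
Sdhb: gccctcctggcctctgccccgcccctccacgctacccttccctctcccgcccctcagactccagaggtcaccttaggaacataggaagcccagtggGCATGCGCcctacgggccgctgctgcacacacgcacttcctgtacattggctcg
Uqcr11: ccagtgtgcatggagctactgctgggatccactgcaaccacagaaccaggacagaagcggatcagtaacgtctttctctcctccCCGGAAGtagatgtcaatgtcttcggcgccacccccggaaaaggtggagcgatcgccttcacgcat
Cox6a1: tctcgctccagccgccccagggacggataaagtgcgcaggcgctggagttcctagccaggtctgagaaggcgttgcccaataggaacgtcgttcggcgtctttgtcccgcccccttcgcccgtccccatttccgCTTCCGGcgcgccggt
Atp5k: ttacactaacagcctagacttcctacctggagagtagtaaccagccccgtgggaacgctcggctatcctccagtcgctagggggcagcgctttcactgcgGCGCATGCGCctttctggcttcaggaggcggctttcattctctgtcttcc
Cox6b2: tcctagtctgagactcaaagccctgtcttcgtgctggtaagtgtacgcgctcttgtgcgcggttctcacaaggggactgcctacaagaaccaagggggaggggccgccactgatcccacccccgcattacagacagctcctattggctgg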

How the data were processed

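RNA of sorted BM erythroblasts (10 ng per sample) was amplified with a T7 method and carried the dye Cy3 on 1-colour Agilent arrays of the mouse genome, 1 for each of 3 P38α+/− and 3 P38α−/− mice. The deposited files hold the intensity of every spot from Agilent Feature Extraction 10.7.3.1, background-subtracted within the array and not normalized between arrays, with probe positions on mm9. The authors also deposited 1 table of normalized intensity, used as an alternative. Members and gene lists were chosen with earlier results of these data known.

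Control spots and outlier spots were left out, spots of a probe were averaged as log2 of the deposited intensity, and the 75th percentile of 15527 probes that cleared background on every array was taken off within each array. Detection ran from 28.9% to 53.0%, so the percentile over all probes was tried as an alternative. No spot was saturated, and the number of arrays limits the precision. Tested probes (18764) were fitted in R 4.3.3 by lmFit and eBayes of limma 3.58.1, with two-sided p-values adjusted after Benjamini and Hochberg. Exact permutation of 3 against 3 arrays cannot give a p below 0.1 and was not used for calls. In simulated data with 200 of 18764 probes changed, 115 were called, 108 of them changed. The simulated noise was independent between arrays, without array-wide shifts, slide or replicate effects or a trend with brightness. It therefore checks the fit and not how calls depend on the processing of these arrays.

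Genes were named by accession for 27509 probes and by file name for 24219 of 55681, and members by the file's name. Named genes were, in each complex, up to 4 of the largest differences each way without overlap, all genes of complex II, the value nearest to the median tested probe, isoform families and genes whose probes disagreed. From the other lists, up to 2 each way were named, and 1 such gene is not reported here. Ndufaf6 and Atp5sl were added after their values were seen.

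Replicate numbers recur in both genotypes. The correlation of residuals about the genotype means was 0.392, 0.242 and 0.389 for equal numbers and at most 0.062 otherwise. Arrays of equal number thus varied together to some degree, but no label states that the samples were paired. The fit without the block followed the methods' unpaired test. With the replicate block 63 genes were called in place of 27, and 0 members. Columns left unassigned numbered 0.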

Additional observations from a re-analysis of the deposited data

How the results depend on the processing

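With 3 arrays a genotype the calls depended on the processing, and the cause was not tested. Against 27 genes called, 21 of them higher, the count was 737 (409 higher) with the percentile over all probes, 15 (14 higher) under quantile normalization, 8 (2 higher) with spike-in centring, 11 (all higher) in the authors' normalized values, 17 with normexp background correction, 0 without the filter on dim probes, 76 (54 higher) with probes well above background on all 6 arrays, 1685 (244 higher) with array weights and 0 with the slide as a block, which is the same as leaving out P38α−/− replicate 3. The methods' unpaired equal-variance test gave 2 genes with adjustment and 906 without it. With the replicate block 63 genes were called, of which 15 were higher, so that most calls were lower there, as with array weights. No member was called with the block. Leaving out 1 array gave 0 to 100 genes, with 100 without P38α+/− replicate 3, 20 without P38α+/− replicate 1, and 0 without each of the 4 others.

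The count of called members was 0 in the main comparison and all but 3 alternatives. It was 3 with the percentile over all probes (Cox6b2, Cox6a2 and Ndufaf3), 3 with array weights (Cox6b2, Cox6a2 and Ndufaf6) and 1 in the methods' test without adjustment. Calls with array weights leaned on P38α−/− replicate 3, alone on its slide, whose weight was 3.99 against 0.474 and 0.765 for the other P38α−/− arrays. The percentile over all probes moved the median tested probe from -0.16 to 0.32. Members higher without overlap numbered 59 there, 0 with spike-in centring and 36 to 47 with 1 array left out, where fewer arrays had to be separated. Members lower without overlap numbered 0 with the percentile over all probes, quantile normalization, spike-in centring and the authors' values, and 3 to 9 with 1 array left out, with 9 without P38α+/− replicate 3 and 6 without P38α−/− replicate 2.

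Medians of complexes I to V relative to the median tested probe were 0.156, 0.059, 0.093, 0.12 and 0.173 under quantile normalization and 0.195, 0.062, 0.084, 0.146 and 0.205 in the authors' values. Without the filter complexes I and V stood at 0.488 and 0.501, and complex IV at 0.232 with normexp and 0.24 with the stricter filter. The array of P38α−/− replicate 2 had a rank correlation of 0.898 between the authors' values and its own scanner signal, against 1 for the others.

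Of 39 named members tested, 23 kept their sign under all alternatives. Signs turned with the percentile over all probes for Atp5g2 (0.306), Cox7a2l (0.367), Ndufaf1 (0.155), Ndufaf4 (0.04), Ndufs4 (0.383), Sdhaf1 (0.105), Sdhaf2 (0.44) and Uqcrfs1 (0.418), and with spike-in centring for Atp5g2 (0.026), Cox7a2l (0.087), Ndufs4 (0.102), Sdhaf2 (0.16) and Uqcrfs1 (0.138). They turned under quantile normalization for Atp5f1 (-0.013), Cox4i2 (0.278) and Sdhaf2 (0.263), in the authors' values for Atp5s (0.023), Cox4i2 (0.565) and Sdhaf2 (0.302), with normexp for Sdhaf2 (0.041), with array weights for Sdhaf2 (0.031), Sdhc (-0.035) and Uqcrb (-0.002), and with the slide block for Atp5f1 (-0.015) and Cox7a1 (-0.092).
With 1 array left out, values crossed 0 for Atp5f1 from -0.09 to 0.123, Cox7a1 from -0.092 to 0.745, Cox7a2 from 0 to 0.197, Cox7a2l from -0.222 to 0.018, Sdhaf2 from -0.18 to 0.135, Sdhc from -0.046 to 0.046, Sdhd from -0.005 to 0.168, Uqcrb from -0.071 to 0.113 and Uqcrfs1 from -0.24 to 0.118. Dim members such as Cox6a2, Cox4i2 and Cox7a1, well above background on some arrays of a genotype only, are limited by their signal.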
